A study of Mus musculus with 18 samples.

Results

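Cells that had been through a cardiac reprogramming protocol for 2 weeks without turning on a GFP reporter, labelled as GFP- cells in which reprogramming failed, were compared with neonatal cardiac fibroblasts. The comparison used 6 of the 18 arrays of the study, chosen by their titles, 3 in each group. All cells came from CD1 mice, and the series' design text describes each group's 3 arrays as biological replicates. RNA was hybridised to Affymetrix mouse Gene 1.0 ST arrays, which measure a transcript with several short probes summarised as 1 log2 signal. Where they help to place the GFP- cells, values are also given for GFP- cells at 4 weeks, for GFP+ induced cardiomyocyte-like cells at 2 weeks and for neonatal cardiomyocytes, again with 3 arrays each and from the same strain.

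The labels name neither the reprogramming factors, nor the vector, nor the promoter that drives GFP, nor how the cells were sorted. The titles give no time in culture for the fibroblasts. The GFP- cells differ from the fibroblasts in exposure to the reprogramming protocol and in having been separated by GFP, and possibly in time in culture. These differences cannot be told apart. As the arrays measure RNA of whole populations, a lower signal from fewer cells of a type cannot be told apart from less RNA per cell.

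Cardiac fibroblasts are the main matrix-producing cells of the heart. They make fibrillar collagens and small proteoglycans, express receptors such as Pdgfra and Ddr2 and transcription factors such as Tcf21, and take on contractile smooth muscle genes such as Acta2 when activated in culture. Gata4, Mef2c and Tbx5 are the transcription factors commonly used to push such cells towards a cardiomyocyte fate, and cells that do not complete the change are often described as resistant or partly reprogrammed.

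Of 19912 genes tested, 4520 (22.7%) were called, that is, differed at an adjusted p under 0.05 in limma's moderated test with Benjamini-Hochberg adjustment. Of these, 2742 genes (13.8% of those tested) were higher in GFP- cells and 1778 (8.93%) were lower. Large differences ran mostly the other way: 130 called genes (0.653%) were at least 2-fold higher and 343 (1.72%) at least 2-fold lower, 473 in all (2.38%). The median difference over all genes was 0.05 log2. The arrays of the 2 groups did not overlap in 7638 genes (38.4%), of which 4371 (22% of those tested) were called. GFP- arrays correlated with each other at r from 0.990 to 0.995 across genes and with fibroblast arrays at 0.970 to 0.981. Replicate 2 of the GFP- cells carried the lowest weight of the 6 arrays (0.371) when limma weighted them by their scatter, and it was the highest GFP- array for Acta2, Tagln, Actc1 and Myl4 among others, though not for Nppa, Ryr2 or Fabp3.

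**Figure D1:**
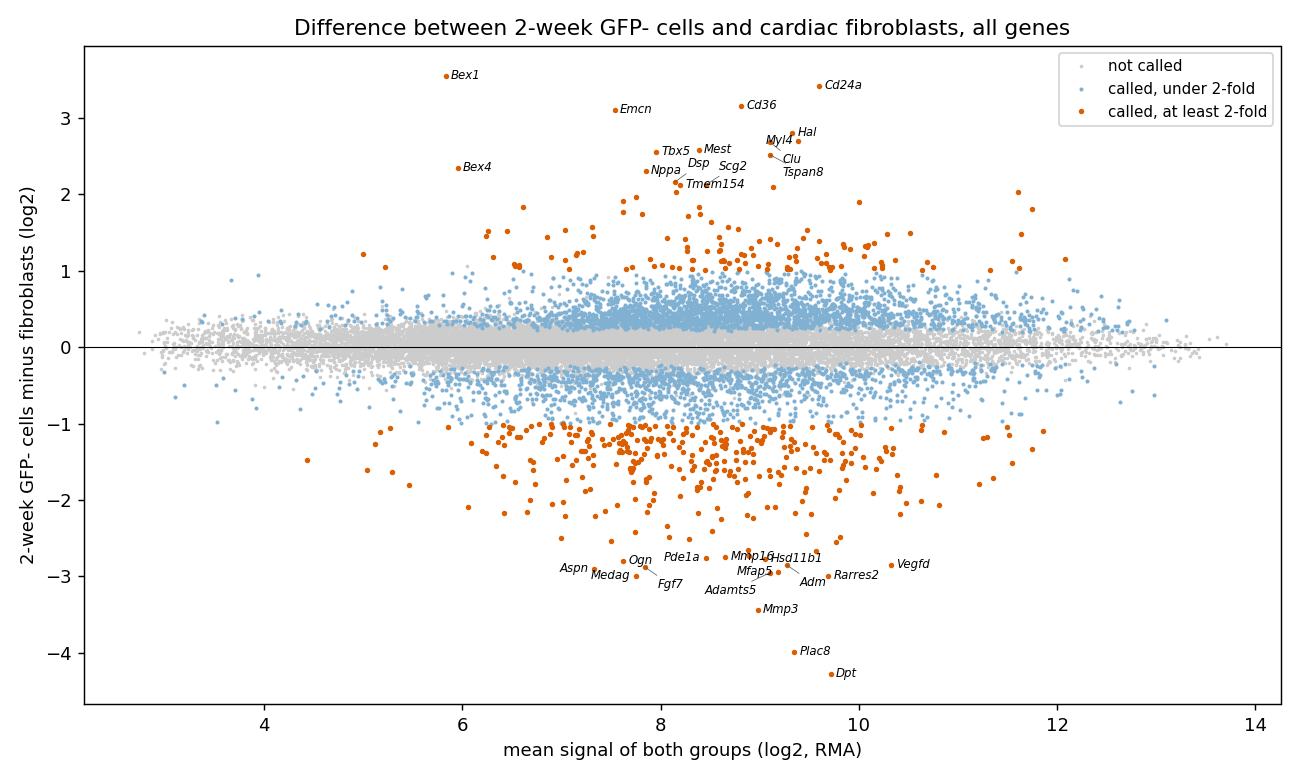
Difference between 2-week GFP- cells and cardiac fibroblasts (log2, vertical axis) against the mean signal of both groups (log2, horizontal axis) for 19912 genes, 1 point per gene, with the 15 largest rises and 15 largest falls of the naming rule labelled. Called genes of at least 2-fold lie more often below the zero line (343) than above it (130).

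The label was checked against cell type markers. Both groups carried high macrophage signal: the mean log2 signal over 29 macrophage and leukocyte core genes was 11.25 to 11.49 in the fibroblast arrays and 11.58 to 11.63 in the GFP- arrays, against 9.25 to 9.57 in GFP+ cells and 6.58 to 6.76 in cardiomyocytes. Ptprc, which encodes the pan-leukocyte antigen CD45, measured 11.68, 11.76 and 11.94 in fibroblast arrays and 11.74, 11.81 and 11.70 in GFP- arrays, against 6.71, 7.36 and 7.20 in cardiomyocytes. The 20 fibroblast identity genes averaged 9.02 to 9.21 in fibroblast arrays and 8.49 to 8.67 in GFP- arrays, against 8.63 to 8.69 in GFP+ cells and 8.42 to 8.63 in cardiomyocytes. The cultures labelled as fibroblasts and as GFP- cells therefore both held transcripts of macrophages. The mean of the fibroblast genes was highest in the fibroblast arrays and did not set GFP- cells apart from GFP+ cells or cardiomyocytes. Members of lists are counted below against the shares of all genes given above. The lists were chosen with earlier results of these data known, so the counts are descriptions. The part that changes in cell composition play in them was not tested.

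**Figure D2:**
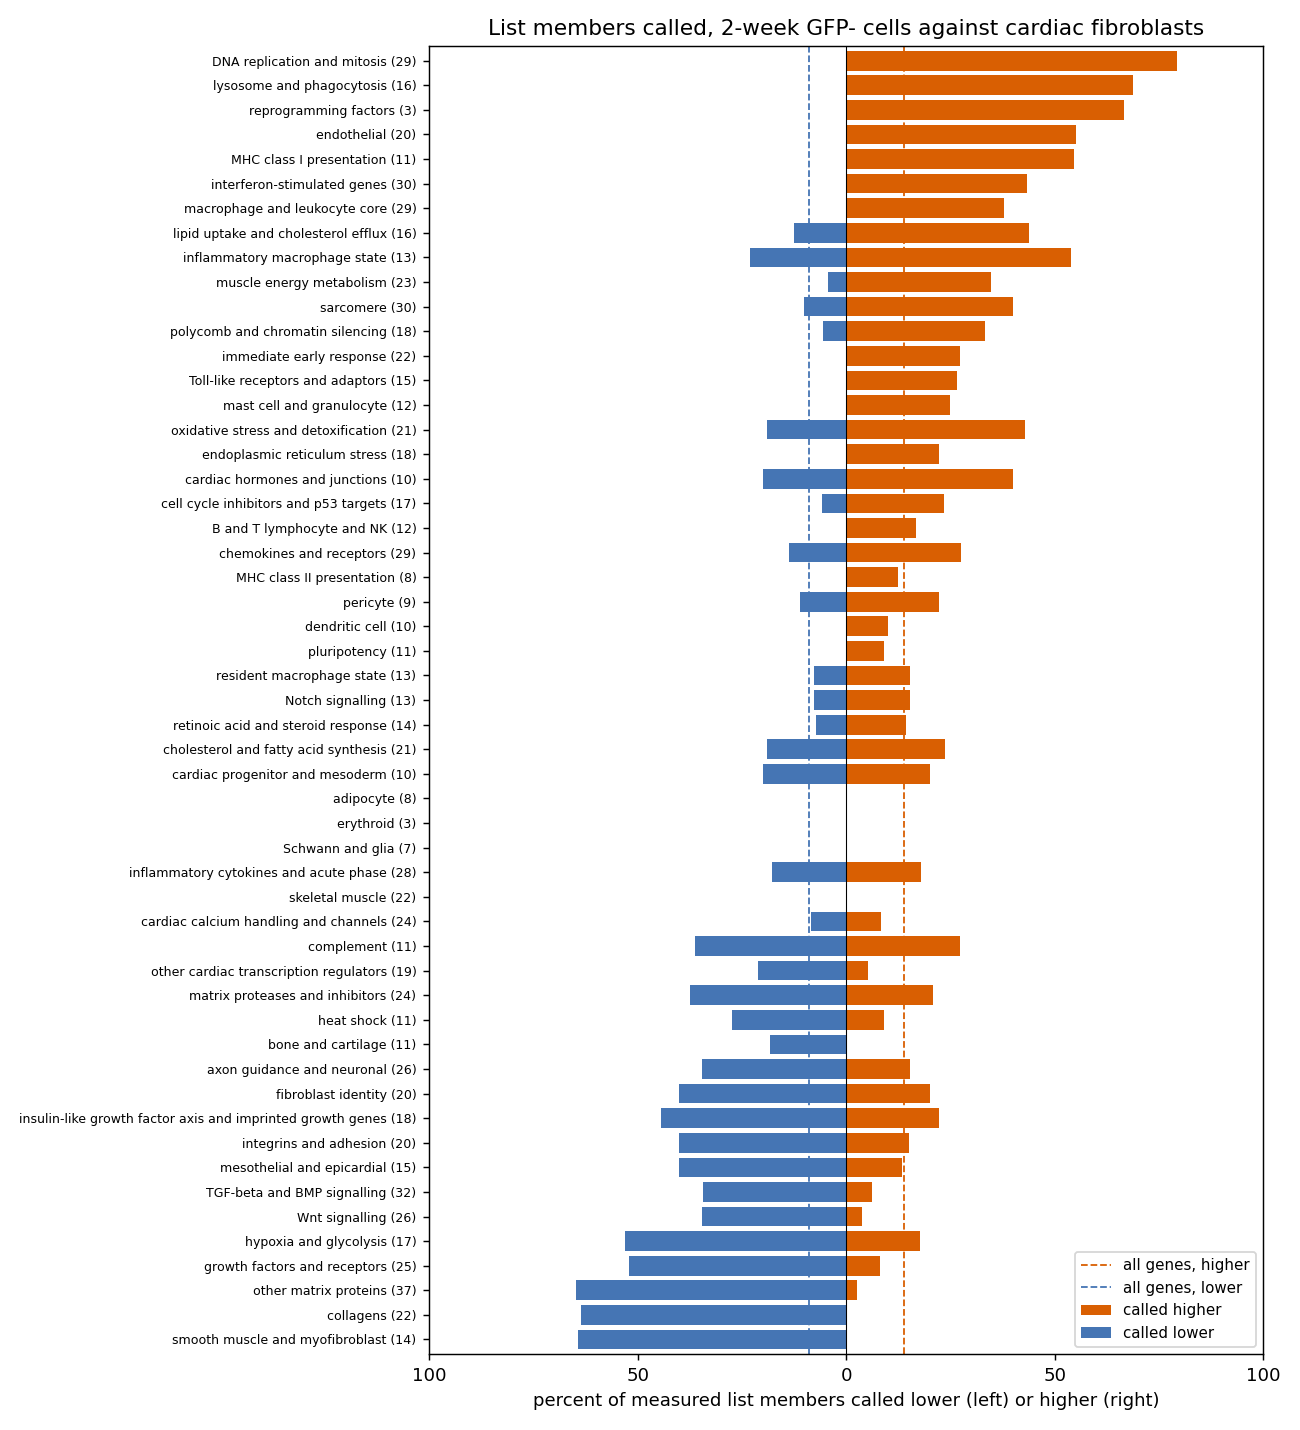
Percent of the measured members of each gene list (number measured in brackets) that were called lower (left, blue) or higher (right, orange) in 2-week GFP- cells than in cardiac fibroblasts, with dashed lines at the shares of all genes (8.93% lower, 13.8% higher). DNA replication and mitosis stands at the top with 23 of 29 higher, and smooth muscle, collagen and other matrix genes at the bottom with no member or 1 member higher.

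The matrix programme was lower in the GFP- cells. Of 22 collagen genes, 14 were lower and none higher (median -0.61), and of 37 other matrix proteins, 24 were lower and 1, Tgfbi, was higher by 0.26 (median -0.97), a call lost on several settings, and lower than fibroblasts at 4 weeks by 0.46 (adjusted p = 0.00122). Without GFP- replicate 2, 1 collagen was higher, Col18a1. In GFP+ cells at 2 weeks, 24 of the 37 other matrix proteins were lower than in fibroblasts as well, and 5 were higher (median -0.90). Of the 22 collagens, 9 were lower there and 2 higher (median -0.15). Of all 19912 genes, 3155 were lower and 3467 higher in that comparison. Dpt, dermatopontin, a small matrix protein that binds collagen fibrils, showed the largest fall of the naming rule. Its log2 signal was 12.08, 11.86 and 11.63 in the fibroblast arrays and 7.66, 7.40 and 7.65 in the GFP- arrays, a difference of -4.28 ± 0.19 (SE), or 19.5-fold lower (adjusted p = 1.30e-11). All 3 GFP- arrays lay more than 3 log2 units under the lowest fibroblast array. Cardiomyocytes, at 11.97, 11.78 and 11.61, stood near the fibroblasts.

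Small leucine-rich proteoglycans, which coat and space collagen fibrils, were lower too, all but 1 of those on the list. Ogn, osteoglycin, measured 8.90, 9.03 and 9.14 in fibroblasts and 6.26, 6.62 and 5.79 in GFP- cells (6.98-fold lower, adjusted p = 6.62e-09). Aspn, asporin, measured 8.70, 8.58 and 9.05 in fibroblasts and 5.79, 5.93 and 5.89 in GFP- cells, and every GFP- value lay under 6.157 log2, the smallest lower quartile found among the arrays, which served here as the limit below which a signal is not above background. Its fall was therefore at least 6.15-fold (adjusted p = 6.94e-11). The GFP- array of Ogn at 5.79 lay under that limit too. Prelp fell by 2.55 ± 0.15 log2 and Dcn, decorin, by 1.33 ± 0.14. Lum, lumican, fell by 2.06 ± 0.17 at 2 weeks but stood above fibroblasts at 4 weeks, by 1.25 ± 0.17 (adjusted p = 2.57e-05), and the 2 weeks minus 4 weeks difference was -3.31 ± 0.17 (adjusted p = 3.59e-10). Omd was the one measured member of this family on the list that was not called (-0.12).

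Of the microfibril and elastic fibre genes, Mfap5 fell furthest. It measured 11.08, 10.68 and 10.22 in fibroblasts and 7.76, 7.63 and 7.75 in GFP- cells (7.71-fold lower, adjusted p = 4.31e-10), with the fibroblast arrays spread more widely than the GFP- arrays but not overlapping them. Mfap4 fell by 1.72 ± 0.16 log2, the cross-linking enzymes Lox by 1.74 ± 0.29 and Loxl1 by 1.72 ± 0.12, and Fbln2 by 1.48 ± 0.19, whereas Eln, elastin (-0.03), Emilin1 (-0.02) and Mfap2 (0.09) were not called. Postn, periostin, a matrix protein of activated fibroblasts, measured 11.65, 11.43 and 11.45 in fibroblasts against 8.86, 9.96 and 9.16 in GFP- cells (4.54-fold lower, adjusted p = 2.30e-05), and replicate 2 was again the highest GFP- array. Fn1, fibronectin, stayed among the brightest signals in both groups and fell by 0.72 ± 0.15 log2 (adjusted p = 0.00185).

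Among collagens, the fibril-forming chain Col3a1 fell furthest. It measured 10.69, 10.60 and 10.51 in fibroblasts and 8.24, 8.56 and 8.47 in GFP- cells, a 4.53-fold fall (adjusted p = 1.87e-11) with little spread in either group. Col1a2 fell by 1.62 ± 0.12 log2, Col5a2 by 1.51 ± 0.13 and Col1a1 by 1.24 ± 0.12. Col8a1, a short-chain collagen, fell by 1.83 ± 0.24 and was called on every setting tried, although its GFP- arrays ran from 9.08 to 10.17. The basement membrane chains Col4a1 (-0.88), Col4a2 (-0.74), Col4a5 (-0.53) and Col4a6 (-0.37) were lower too, and the call of Col4a6 was lost without GFP- replicate 1 or fibroblast replicate 1. Col15a1 (-0.16) and Col18a1 (0.18), both of which give rise to soluble fragments, were not called.

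Against GFP- cells at 4 weeks, 2 collagens were called and both were higher at 2 weeks: Col1a1 by 0.64 ± 0.12 log2 (adjusted p = 0.000974) and Col1a2 by 0.60 ± 0.12 (adjusted p = 0.00131). In that comparison 2039 of all genes (10.2%) were called higher and 1426 (7.16%) lower. Dpt differed between the time points by 0.31 ± 0.19 log2 (adjusted p = 0.287) and Col3a1 by -0.06 ± 0.10 (adjusted p = 0.73), and neither was called.

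**Figure D3:**
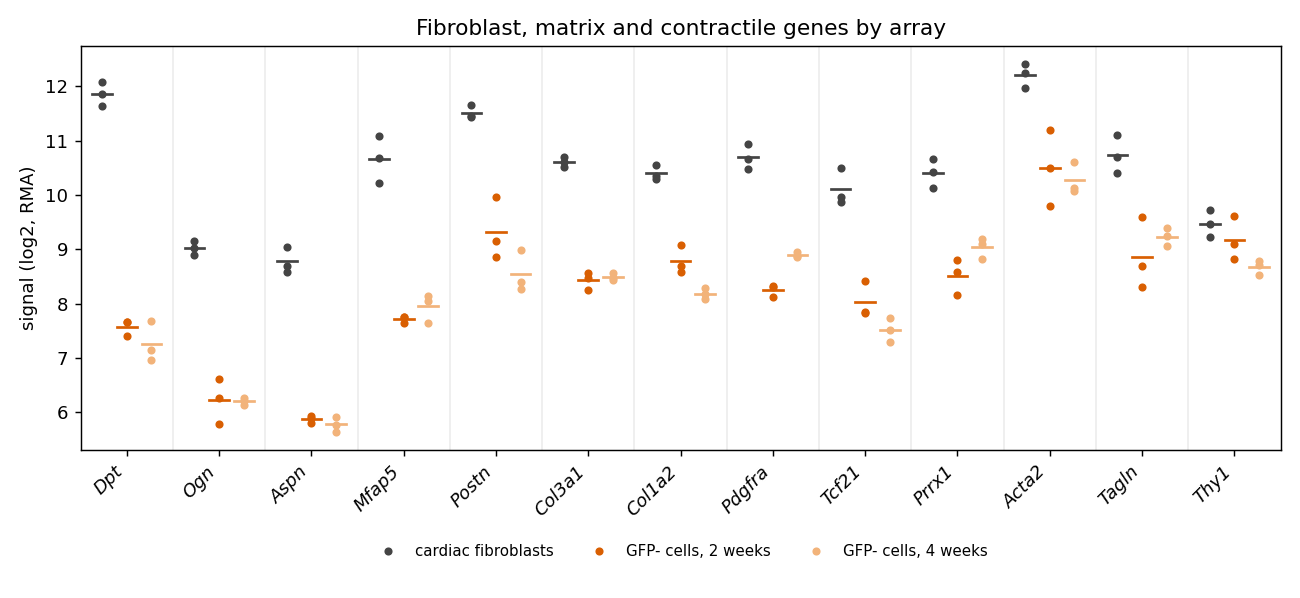
Signal (log2, RMA) of 13 fibroblast, matrix and contractile genes in each array of cardiac fibroblasts, 2-week GFP- cells and 4-week GFP- cells, with 1 point per array and a line at the mean of 3. Fibroblast arrays lie above all GFP- arrays for every gene shown except Thy1, whose groups overlap.

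Of 20 fibroblast identity genes measured, 8 were lower and 4 higher (median -0.23). Pdgfra, the platelet-derived growth factor receptor that marks cardiac fibroblasts, measured 10.94, 10.67 and 10.47 in fibroblasts and 8.31, 8.30 and 8.12 in GFP- cells (5.45-fold lower, adjusted p = 7.20e-11). Tcf21, a transcription factor needed to form cardiac fibroblasts, measured 10.50, 9.97 and 9.87 in fibroblasts and 7.83, 8.41 and 7.84 in GFP- cells (4.25-fold lower, adjusted p = 2.73e-08). Both groups of arrays stood clear of each other in both genes. The mesenchymal homeobox gene Prrx1 fell by 1.89 ± 0.15 log2, the collagen receptor Ddr2 by 1.83 ± 0.16, Cd34 by 1.19 ± 0.19 and Twist1 by 0.64 ± 0.12.

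Other genes of that list did not move with them. Thy1, a surface antigen used to isolate fibroblasts, measured 9.71, 9.46 and 9.22 in fibroblasts and 8.81, 9.61 and 9.09 in GFP- cells, which overlap (-0.30 ± 0.21 log2, adjusted p = 0.364, called with array weights). S100a4 (0.01) was not called. Vim, vimentin, the intermediate filament protein of mesenchymal cells and macrophages, rose by 0.31 ± 0.08 log2 (adjusted p = 0.00524). Snai2, a zinc finger repressor of epithelial genes, was picked out after its values were seen: it fell from 10.34, 9.83 and 9.98 to 7.63, 7.96 and 7.86 (4.71-fold, adjusted p = 4.00e-10).

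Contractile smooth muscle genes, which fibroblasts express as myofibroblasts, were lower. Of 14 genes, 9 were lower and none higher (median -0.93), and 10 were lower without GFP- replicate 2. Acta2, smooth muscle actin, measured 12.40, 12.25 and 11.97 in fibroblasts and 9.80, 11.19 and 10.49 in GFP- cells (3.28-fold lower, adjusted p = 2.19e-05). Tagln, the actin-binding protein transgelin, measured 11.10, 10.70 and 10.40 in fibroblasts and 8.30, 9.60 and 8.70 in GFP- cells (3.66-fold lower, adjusted p = 1.07e-05). In both genes GFP- replicate 2 was the highest and replicate 1 the lowest of its group, and no array overlapped the fibroblasts.

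Myl9 fell by 1.45 ± 0.21 log2, Tpm2 by 1.38 ± 0.13, Cnn1, calponin, by 1.38 ± 0.25 and Itga11, a collagen-binding integrin of myofibroblasts, by 1.37 ± 0.10. Myh11, the myosin of mature smooth muscle, was not called (-0.04), nor were Smtn (-0.11) and Mylk (-0.23). Of 9 pericyte genes, Pdgfrb fell, from 10.24, 10.13 and 9.55 to 7.67, 8.02 and 7.65 (4.58-fold, adjusted p = 7.59e-09), while Rgs5 (0.03) and Cspg4 (0.24) were not called. Anpep, a surface peptidase that myeloid cells also carry, rose by 1.04 ± 0.14 log2, and the third called member, Kcnj8, rose by 0.46 ± 0.16 but lost its call on several settings.

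Compared with GFP+ cells at 2 weeks, where 6874 of all genes (34.5%) were called, the smooth muscle list was lower as well: 9 of 14 genes were lower and none higher, against 16.2% and 18.4% of all genes. Acta2 was 3.44-fold lower than in GFP+ cells (adjusted p = 3.20e-06), whose arrays measured 12.15, 12.39 and 12.28. Myl9 was 6.31-fold lower (adjusted p = 3.15e-09).

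Matrix proteases moved both ways, with 9 of 24 genes lower and 5 higher. Mmp3, stromelysin, measured 10.85, 10.82 and 10.44 in fibroblasts and 7.60, 6.90 and 7.28 in GFP- cells (10.9-fold lower, adjusted p = 1.41e-10). Adamts5, an aggrecanase, measured 10.75, 10.61 and 10.38 in fibroblasts and 7.36, 8.05 and 7.47 in GFP- cells (7.74-fold lower, adjusted p = 1.12e-08). In both genes every GFP- array lay more than 2 log2 units under every fibroblast array. Timp1, an inhibitor of these enzymes, fell by 1.68 ± 0.15 log2, Mmp2 by 1.26 ± 0.17 and the membrane-type protease Mmp16, outside the list but among the 15 largest falls, by 2.75 ± 0.19.

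Several of the proteases that rose are known from macrophages and neutrophils. Mmp12, macrophage elastase, measured 10.62, 10.58 and 10.58 in fibroblasts and 12.62, 12.60 and 12.64 in GFP- cells (4.08-fold higher, adjusted p = 1.04e-10), with almost no spread within a group. Plau, urokinase, rose by 1.54 ± 0.21 log2 and its receptor Plaur by 1.21 ± 0.13, Mmp8 by 0.95 ± 0.18 and Mmp13 by 0.70 ± 0.19. Mmp14 (-0.01) and Timp2 (0.11), a membrane protease and its inhibitor, were not called.

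Many secreted growth factors were lower, with 13 of 25 growth factor and receptor genes lower and 2 higher (median -0.63). Fgf7, keratinocyte growth factor, a mesenchymal signal to epithelia, measured 9.64, 9.33 and 8.86 in fibroblasts and 6.44, 6.62 and 6.14 in GFP- cells (7.34-fold lower, adjusted p = 1.44e-08). The GFP- array at 6.14 lay below the background limit. Vegfd, a lymphangiogenic factor, measured 11.72, 11.85 and 11.68 in fibroblasts and 9.01, 9.002 and 8.70 in GFP- cells (7.2-fold lower, adjusted p = 2.14e-09). Neither gene had overlapping groups. Its relative Vegfc fell by 1.59 ± 0.13 log2 and the heparin-binding factor Ptn by 2.18 ± 0.16. Pdgfd fell to a level not above background, at least 2.4-fold. Nrg1 rose by 0.56 ± 0.15, lost without fibroblast replicate 3, and Pdgfb by 0.48 ± 0.13, lost without fibroblast replicate 1, while Hgf (-0.35) and Pdgfa (0.22) were not called.

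Of 32 TGF-beta and BMP pathway genes, 11 were lower and 2 higher (median -0.22). The number higher was 1 without fibroblast replicate 2, and the number lower was 8 without fibroblast replicate 1 and 18 with array weights. Among ligands, Tgfb1 rose by 0.88 ± 0.11 log2 (8.93, 9.16 and 9.08 to 9.99, 10.02 and 9.78, adjusted p = 1.30e-05), whereas Tgfb2 (-0.70), Tgfb3 (-0.87, lost on several settings), Bmp4 (-0.71) and Inhba, the activin subunit (-1.39), fell. Bmp4 stood above fibroblasts at 4 weeks, by 0.55 ± 0.15 (adjusted p = 0.0223), and differed between the times by -1.27 ± 0.15 (adjusted p = 1.32e-05). Among receptors Bmpr1a fell by 1.10 ± 0.16, and Tgfbr1 (-0.01) and Tgfbr2 (0.17) were not called. Id3, a direct target of BMP signalling, measured 9.69, 9.58 and 9.22 in fibroblasts and 8.07, 8.24 and 8.18 in GFP- cells (2.52-fold lower, adjusted p = 1.39e-06). At 4 weeks GFP- cells measured 9.81, 9.75 and 9.21, and the 2-week arrays were 2.68-fold lower than these (adjusted p = 1.36e-06).

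Of 26 Wnt pathway genes, 9 were lower and 1 higher (none higher without fibroblast replicate 1, 3 with array weights), and the falls were led by secreted antagonists. Frzb measured 9.66, 9.78 and 9.44 in fibroblasts and 7.53, 7.67 and 7.36 in GFP- cells (4.3-fold lower, adjusted p = 3.17e-10). Sfrp1 fell by 1.69 ± 0.20 log2 and Sfrp2 by 0.81 ± 0.18. The target gene Axin2 (0.14) and the transcription factor Lef1 (0.30) were not called. Sfrp1, Sfrp2 and Frzb were each lower at 2 weeks than in 4-week GFP- cells, by 1.12 ± 0.20, 1.25 ± 0.18 and 0.86 ± 0.12 log2 (adjusted p = 0.000503, 7.78e-05 and 4.55e-05).

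Of 18 genes of the insulin-like growth factor axis and of imprinted growth control, 8 were lower and 4 higher. The binding proteins Igfbp3 and Igfbp5 fell by 2.09 ± 0.18 and 1.54 ± 0.13 log2, and Igf1 (0.12) and Igf2 (-0.02) were not called. The imprinted genes did not move together. Mest, an imprinted gene of embryonic mesoderm, rose from 6.93, 7.16 and 7.20 to 9.70, 9.74 and 9.58 (5.98-fold, adjusted p = 1.01e-09), while the noncoding RNA Meg3 fell by 1.30 ± 0.16, Ndn, necdin, by 1.43 ± 0.19 and Grb10 by 1.23 ± 0.14. Mest stood higher still at 4 weeks, at 10.93, 10.86 and 10.73 (2 weeks minus 4 weeks -1.16 ± 0.16, adjusted p = 4.30e-05).

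Of 17 genes of the response to low oxygen and of glycolysis, 9 were lower and 3 higher (median -0.38). Adm, adrenomedullin, a vasodilator peptide, measured 10.81, 10.81 and 10.47 in fibroblasts and 8.13, 7.60 and 7.81 in GFP- cells (7.21-fold lower, adjusted p = 1.30e-09). Vegfa measured 9.81, 9.52 and 9.40 in fibroblasts and 8.34, 8.28 and 8.15 in GFP- cells (2.5-fold lower, adjusted p = 3.20e-08). The arrays of the groups did not overlap in either gene. Bnip3, a mitophagy receptor, fell by 0.93 ± 0.11 log2, the oxygen sensor Egln3 by 0.92 ± 0.16, Ankrd37 by 0.90 ± 0.13 and the collagen prolyl hydroxylases P4ha1 and P4ha2 by 0.78 ± 0.11 and 0.74 ± 0.10. The glycolytic genes of the list were mixed: Hk2 (0.46) and Pfkp (0.51) rose, Pfkl (-0.43) fell, a call lost without fibroblast replicate 1, and Slc2a1 (0.31), Pgk1 (-0.10), Aldoa (0.08) and Ldha (-0.02) were not called.

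The hypoxia-inducible factors bind a short element, ACGTG. It was searched on both strands in the 250 bases before each RefSeq start of a gene (GRCm38.p6), and 12 of 16 list genes with a sequence held it (75%), as did 6 of the 9 that fell and 20.9% of 15600 measured genes. A match is not a binding site. The list was drawn up from genes of the response to low oxygen, so its share does not bear on the fall. Among the genes that fell the share was 66.7%, no higher than in the whole list. Adm, with the largest fall of the list, did not hold the element. The last 150 bases before the start of 3 genes that fell are printed 5′ to 3′ on the gene's strand, with the element in capitals on whichever strand it lies (ACGTG or CACGT). They show how its place differs: Ankrd37 (chr8:45999851-46000000, minus strand) holds it next to the start, P4ha1 (chr10:59323146-59323295, plus strand) a little further away, and Bnip3 (chr7:138909507-138909656, minus strand) well upstream as a palindrome that both strands share.
Ankrd37: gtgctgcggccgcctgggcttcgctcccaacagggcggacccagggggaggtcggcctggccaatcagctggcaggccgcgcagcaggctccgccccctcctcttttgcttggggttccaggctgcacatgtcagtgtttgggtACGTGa
P4ha1: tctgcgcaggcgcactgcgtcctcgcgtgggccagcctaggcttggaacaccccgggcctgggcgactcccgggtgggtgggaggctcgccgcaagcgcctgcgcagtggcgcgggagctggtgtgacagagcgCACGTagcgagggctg
Bnip3: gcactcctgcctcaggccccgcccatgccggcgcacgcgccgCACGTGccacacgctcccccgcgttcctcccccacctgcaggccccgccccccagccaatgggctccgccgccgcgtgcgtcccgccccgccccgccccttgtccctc

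Of the 3 reprogramming factors commonly used, Tbx5 was the one that kept its call on every setting tried. It measured 6.58, 6.70 and 6.75 in fibroblasts and 9.16, 9.42 and 9.10 in GFP- cells (5.86-fold higher, adjusted p = 6.67e-12), with no overlap. Gata4 measured 9.04, 8.95 and 8.42 in fibroblasts and 9.01, 9.18 and 9.31 in GFP- cells. The groups overlapped, the difference was 0.36 ± 0.13 log2 (adjusted p = 0.0445), and the call was lost on several settings, array weights among them. Mef2c measured 10.46, 10.71 and 10.79 in fibroblasts and 10.71, 11.28 and 10.94 in GFP- cells and was not called (0.33 ± 0.13, adjusted p = 0.0755, called without GFP- replicate 1). The values do not tell an introduced transcript from the cell's own.

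GFP+ cells of the same age stood above the GFP- cells in all 3 factors. Tbx5 measured 11.55, 11.58 and 11.63 there, 5.13-fold higher than in GFP- cells (adjusted p = 1.35e-12), Gata4 was 3.26-fold higher (adjusted p = 1.27e-09) and Mef2c 1.7-fold higher (adjusted p = 6.19e-05). For Tbx5 the GFP- cells lay near the cardiomyocytes, at 9.26, 9.39 and 9.30. At 4 weeks GFP- cells held less Tbx5, 8.63, 8.38 and 8.72, than at 2 weeks (adjusted p = 0.000273).

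Some cardiac genes were higher in GFP- cells than in fibroblasts. Of 30 sarcomere genes, 12 were higher and 3 lower (median 0.18), and at least 11 were higher whichever array was left out. Myl4, the atrial and fetal light chain of myosin, measured 8.63, 8.002 and 7.49 in fibroblasts and 10.15, 11.47 and 10.60 in GFP- cells (6.49-fold higher, adjusted p = 2.50e-07). Actc1, cardiac actin, measured 6.81, 7.34 and 7.26 in fibroblasts and 8.33, 10.04 and 9.14 in GFP- cells (4.09-fold higher, adjusted p = 1.39e-05). In both genes replicate 2 was the highest GFP- array and replicate 1 the lowest, a spread of over 1 log2 unit, yet each GFP- array lay above each fibroblast array.

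The atrial light chain Myl7 rose by 1.75 ± 0.16 log2 and Csrp3, a Z-disc protein, by 1.74 ± 0.14. Tnnt2, cardiac troponin T, was already bright in the cultures labelled as fibroblasts, at 11.33, 11.01 and 10.32, and measured 12.26, 12.51 and 12.35 in GFP- cells (2.8-fold higher, adjusted p = 1.66e-06). Tnnc1 rose by 1.20 ± 0.09 and Myom2 by 1.23 ± 0.22. Ttn, titin, rose by 0.76 ± 0.16. Smpx, a small muscle protein, was called higher as well, from a fibroblast level not above background.

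Other contractile genes were not called. Myh6, the adult myosin heavy chain of the mouse heart, measured 6.95, 6.59 and 6.58 in fibroblasts and 6.74, 7.09 and 6.86 in GFP- cells, which overlap (0.19 ± 0.21, adjusted p = 0.574). The ventricular light chains Myl2 (-0.06) and Myl3 (0.08), Actn2 (-0.02), Tcap (0.06) and Myh7 (0.16) also did not pass the test. Nexn, nexilin, an actin filament protein present in fibroblasts too, fell from 11.32, 11.06 and 10.88 to 8.75, 9.86 and 8.96 (3.74-fold, adjusted p = 6.18e-07), and Tpm1 fell by 0.41 ± 0.10.

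Against GFP+ cells, 26 of the 30 sarcomere genes were lower and 1 was higher in GFP- cells (median -2.08, against 0.02 for all genes). Myh6 measured 9.93, 11.29 and 10.73 in GFP+ cells and 13.17, 12.96 and 13.08 in cardiomyocytes, Actc1 12.97, 13.26 and 13.12 and 13.68, 13.60 and 13.56. Myl4 was 6.43-fold and Tnnt2 2.56-fold lower in GFP- than in GFP+ cells (adjusted p = 3.26e-08 and 9.31e-07).

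Nppa, the atrial natriuretic peptide, measured 6.93, 6.77 and 6.39 in fibroblasts and 9.25, 8.66 and 9.12 in GFP- cells (4.96-fold higher, adjusted p = 1.72e-07). Dsp, desmoplakin, which anchors desmosomes to intermediate filaments, measured 7.16, 7.02 and 7.001 in fibroblasts and 9.13, 9.39 and 9.15 in GFP- cells (4.46-fold higher, adjusted p = 4.69e-11). Both stood clear of the fibroblast arrays and well below the GFP+ arrays, which measured 12.66, 11.90 and 12.52 for Nppa and 12.37, 12.74 and 12.59 for Dsp. Nppb rose by 0.84 ± 0.16 log2 and Pkp2, another desmosomal protein, by 0.48 ± 0.15, a call lost on several settings, whereas the junction genes Cdh2, N-cadherin, and Tjp1, ZO-1, fell by 0.68 ± 0.13 and 1.17 ± 0.17. Nppa was higher at 2 than at 4 weeks by 1.42 ± 0.21 log2 (adjusted p = 8.80e-05).

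Of 24 calcium handling genes, 2 were higher (5 with array weights) and 2 lower. That is 8.33% in each direction, against 13.8% higher and 8.93% lower among all genes. Ryr2, the calcium release channel of the sarcoplasmic reticulum, measured 6.73, 6.89 and 6.96 in fibroblasts and 7.88, 7.73 and 7.52 in GFP- cells (1.8-fold higher, adjusted p = 5.24e-06), against 11.38, 11.50 and 11.51 in GFP+ cells. Fkbp1b, which binds that channel, rose by 0.69 ± 0.09 log2, and Jph2 and Trdn, which hold the release unit together, fell by 0.90 ± 0.14 and 0.76 ± 0.14. Pln (-0.27), Atp2a2 (0.09) and Gja1 (0.18) were not called. Casq2 averaged 7.57 ± 0.88 (SD) in GFP- cells and was not called (0.66 ± 0.28, adjusted p = 0.101, called without GFP- replicate 1).

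Of 23 genes of muscle energy metabolism, 8 were higher and 1 lower (2 lower without GFP- replicate 2). Fabp3, the fatty acid binding protein of heart, measured 7.33, 7.44 and 7.66 in fibroblasts and 9.19, 9.30 and 9.42 in GFP- cells (3.55-fold higher, adjusted p = 4.36e-09). Ldhb rose by 0.98 ± 0.10 log2, Pgam2 by 0.77 ± 0.13 and Pdk4 by 0.54 ± 0.14. Of 19 other cardiac transcription regulators, 4 were lower and 1 higher, and the number higher was 5 with array weights and none without fibroblast replicate 2. Tbx20 fell from 10.35, 9.92 and 9.72 to 8.21, 8.49 and 8.40 (3.09-fold, adjusted p = 2.50e-07), Ankrd1 by 0.73 ± 0.16 and Gata6 by 0.57 ± 0.12, and Nkx2-5 (-0.06), Hand1 (0.05) and Myocd (-0.13) were not called. Tbx20 was also lower than in 4-week GFP- cells, by 1.40 ± 0.15 (adjusted p = 3.14e-06). None of 22 skeletal muscle genes was called at an adjusted p under 0.05 in the limma fit, and with array weights 2 were higher and 1 lower.

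**Figure D4:**
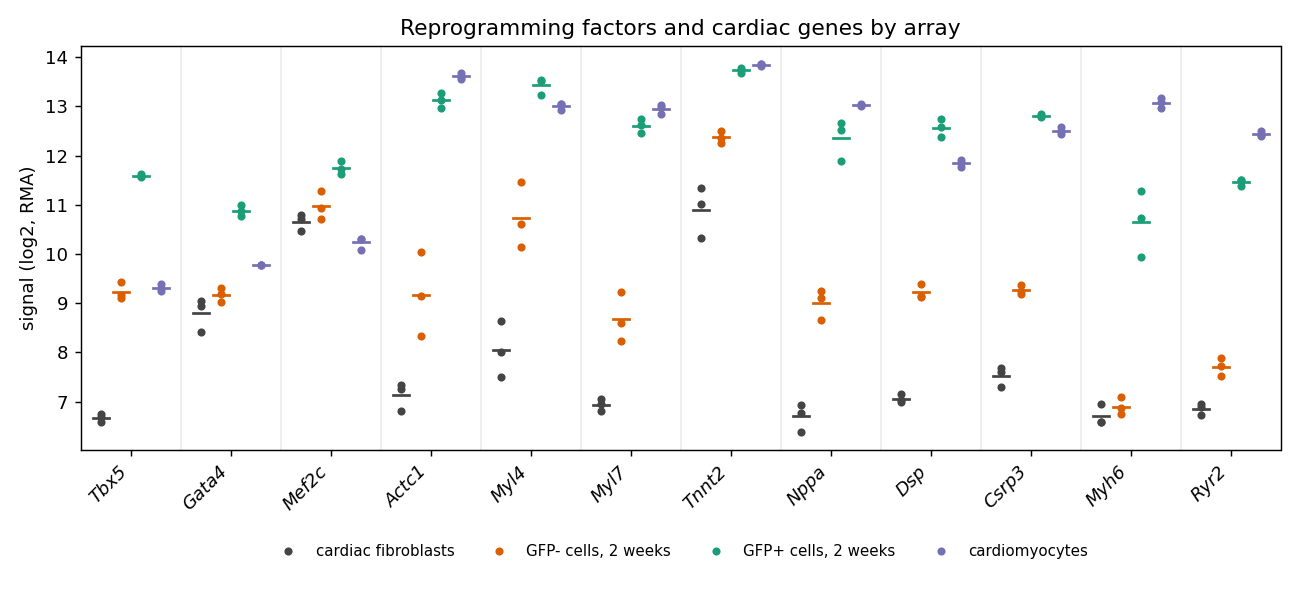
Signal (log2, RMA) of the 3 reprogramming factors and 9 cardiac genes in each array of cardiac fibroblasts, 2-week GFP- cells, 2-week GFP+ cells and neonatal cardiomyocytes, with 1 point per array and a line at the mean of 3. GFP- arrays lie between fibroblast and GFP+ arrays for Tbx5 and for 8 of the 9 cardiac genes, and overlap the fibroblast arrays for Gata4, Mef2c and Myh6.

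DNA replication and mitosis genes were higher, 23 of 29 with none lower (median 0.63). Mki67, the Ki-67 antigen of cycling cells, measured 9.04, 9.46 and 9.60 in fibroblasts and 10.44, 10.16 and 10.15 in GFP- cells (1.85-fold higher, adjusted p = 0.000319). Plk1, a mitotic kinase, measured 7.69, 7.90 and 7.96 in fibroblasts and 8.83, 8.77 and 8.75 in GFP- cells (1.91-fold higher, adjusted p = 7.03e-06). No array overlapped in either gene. The spindle checkpoint kinases Bub1 and Bub1b rose by 0.87 ± 0.19 and 0.99 ± 0.17 log2 and Ccna2, cyclin A2, by 0.93 ± 0.15. Members with no call were Ccne2 (0.23), Cdk1 (0.11), Kif11 (0.48), Cenpf (0.37), Rrm1 (0.19) and Tyms (-0.01).

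The same list stood below fibroblasts in GFP- cells at 4 weeks, with 22 of 29 genes lower and none higher, against 5.7% and 5.79% of all genes. The 2 comparisons share the fibroblast arrays. Tested directly, 28 of 29 genes were higher at 2 than at 4 weeks (median 1.15). Mki67 measured 8.47, 8.52 and 8.75 at 4 weeks, a difference of 1.67 ± 0.16 log2 (adjusted p = 6.58e-07), and Bub1 7.87, 7.54 and 8.16 (1.95 ± 0.19, adjusted p = 1.13e-06). All 29 were higher in GFP- than in GFP+ cells at 2 weeks (median 1.79), where Mki67 measured 7.66, 7.50 and 7.75.

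Promoters of cell cycle genes often carry the CCAAT element bound by NF-Y. On either strand of the same 250-base window it was found in 20 of 24 list genes with a sequence (83.3%), in 16 of the 19 of these that rose and in 38.8% of all 15600 genes. The list was made up of cell cycle genes, so its share does not bear on the rise. The last 150 bases before the start of Bub1 (chr2:127831860-127832009, minus strand) and Plk1 (chr7:122159285-122159434, plus strand), printed as above, show the element in capitals (CCAAT or, on the other strand, ATTGG), as a pair in the one and next to the start in the other.
Bub1: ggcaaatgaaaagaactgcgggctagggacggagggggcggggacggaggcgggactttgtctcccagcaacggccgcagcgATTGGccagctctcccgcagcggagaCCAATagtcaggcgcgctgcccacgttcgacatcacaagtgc
Plk1: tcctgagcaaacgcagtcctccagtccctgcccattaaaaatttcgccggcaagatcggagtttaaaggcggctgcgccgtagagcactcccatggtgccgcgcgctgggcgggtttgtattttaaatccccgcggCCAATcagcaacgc

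Inhibitors of the cycle and p53 targets were mixed. Of 17 genes, 4 were higher and 1 lower. The number higher was 2 without fibroblast replicate 3, and the number lower was 5 with array weights and none without fibroblast replicate 2. Cdkn2c rose by 0.52 ± 0.11 log2 and Perp by 0.53 ± 0.13. Cdkn2a (0.20), Cdkn1b (-0.23) and Gadd45a (0.17) were not called. Of 18 genes of polycomb and chromatin silencing, 6 were higher and 1 lower. Uhrf1, which guides maintenance methylation, rose by 1.02 ± 0.16, the methyltransferases Dnmt3a and Dnmt1 by 0.74 ± 0.09 and 0.48 ± 0.09, and Ezh2 by 0.42 ± 0.11. Bmi1 fell by 0.52 ± 0.14, a call lost without GFP- replicate 3. Ezh2, Uhrf1 and Dnmt1 were higher at 2 than at 4 weeks (by 0.76 ± 0.11, 1.45 ± 0.16 and 0.54 ± 0.09 log2), whereas Dnmt3a did not pass the test (-0.02 ± 0.09, adjusted p = 0.914).

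Macrophage core genes were called higher in 11 of 29 cases and lower in none (median 0.27), and higher in 6 without fibroblast replicate 1. With the replicate number as a block 2 were lower. The changes were small beside the difference of both groups from cardiomyocytes. Csf1r, the receptor for the macrophage growth factor, measured 11.12, 11.24 and 11.44 in fibroblasts and 11.78, 11.67 and 11.72 in GFP- cells (0.45 ± 0.13 log2, adjusted p = 0.0147, lost without fibroblast replicate 1 or GFP- replicate 1). Adgre1, an adhesion receptor used to mark mouse macrophages, measured 11.79, 11.94 and 12.09 in fibroblasts and 12.04, 12.06 and 12.01 in GFP- cells and was not called (0.09 ± 0.21, adjusted p = 0.807). Lyz2 (0.07), Tyrobp (0.02) and Ptprc (-0.04) were not called. Spi1, the PU.1 transcription factor, rose by 0.66 ± 0.14, Cd14 by 0.64 ± 0.15 and Csf2rb by 0.95 ± 0.11. All 29 were higher than in GFP+ cells (median 2.39).

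Some genes of macrophage state differed by more. Cd36, a scavenger receptor for oxidised lipid that endothelial and muscle cells also carry, measured 6.89, 7.16 and 7.65 in fibroblasts and 10.46, 10.39 and 10.31 in GFP- cells (8.9-fold higher, adjusted p = 1.13e-10). Gpnmb, a glycoprotein of lipid-laden macrophages, measured 10.50, 10.94 and 11.11 in fibroblasts and 12.62, 12.63 and 12.70 in GFP- cells (3.49-fold higher, adjusted p = 2.77e-09). The arrays of the groups did not overlap in either gene. Il1rn, the interleukin-1 receptor antagonist, rose by 1.41 ± 0.16 log2.

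Other state genes fell. Plac8, a small cysteine-rich protein, measured 11.57, 11.31 and 11.15 in fibroblasts and 6.91, 7.999 and 7.17 in GFP- cells (15.9-fold lower, adjusted p = 2.43e-10), the second largest fall. Arg1, arginase of alternatively activated macrophages, measured 8.89, 9.46 and 9.98 in fibroblasts and 7.69, 8.03 and 7.79 in GFP- cells (3.06-fold lower, adjusted p = 8.75e-06), and F13a1, a coagulation factor subunit of resident macrophages, fell by 1.58 ± 0.20 log2. Ccr2, the receptor of recruited monocytes, fell by 1.00 ± 0.16. In all, 7 of 13 inflammatory state genes were higher and 3 lower, and 2 of 13 resident state genes were higher (5 with array weights) and 1 lower (2 without fibroblast replicate 1). Marco averaged 7.93 ± 0.47 (SD) in GFP- arrays and was not called (adjusted p = 0.184, called with array weights).

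Lysosomal genes were higher in 11 of 16 cases and lower in none (median 0.36). Atp6v0d2, a subunit of the proton pump, measured 9.21, 9.42 and 9.64 in fibroblasts and 10.80, 10.81 and 10.67 in GFP- cells (2.52-fold higher, adjusted p = 2.74e-05), and at 4 weeks it stood higher still, at 12.60, 12.54 and 12.19 (adjusted p = 4.00e-06). Psap, prosaposin, rose by 0.90 ± 0.08 log2, the phosphatase Acp5 by 0.85 ± 0.15 and Ctsz, cathepsin Z, by 0.66 ± 0.09. Of 16 genes of lipid uptake and efflux, 7 were higher and 2 lower. Fabp4 rose by 1.29 ± 0.11 and the sterol exporter Abcg1 by 0.78 ± 0.13, while Olr1, a receptor for oxidised lipoprotein, fell from 9.11, 8.91 and 8.19 to 6.75, 7.57 and 6.61 (3.39-fold, adjusted p = 6.07e-06).

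Cytokines were divided, with 5 of 28 higher (8 with array weights) and 5 lower. Il6, which cardiac fibroblasts secrete, measured 8.77, 8.46 and 8.12 in fibroblasts and 5.89, 6.81 and 5.99 in GFP- cells (4.65-fold lower, adjusted p = 1.13e-07), with 2 of its 3 GFP- values below the background limit. Il1b fell by 1.06 ± 0.20 log2, and both Il6 and Il1b stood higher again at 4 weeks (2 weeks minus 4 weeks -1.51 ± 0.19 and -1.14 ± 0.20). Csf1, the ligand of Csf1r, fell by 1.02 ± 0.14. Il1a rose from a level not above background, at least 1.82-fold, and Tnfaip3, a brake on NF-kB, by 1.13 ± 0.11. Tnf (0.23) and Il10 (0.41) were not called.

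Among chemokines and their receptors, 8 of 29 were higher and 4 lower, and 2 were lower when the dimmest genes were left out of the fit. Cxcl2 measured 9.56, 9.74 and 10.01 in fibroblasts and 11.33, 11.27 and 11.19 in GFP- cells (2.82-fold higher, adjusted p = 3.10e-07), Ccl6 rose by 1.15 ± 0.13 log2 and Ccrl2 by 1.08 ± 0.15. Cxcl12, a retention factor made by stromal cells, measured 9.86, 9.59 and 9.35 in fibroblasts and 7.57, 8.76 and 7.96 in GFP- cells (2.84-fold lower, adjusted p = 1.92e-05). Cxcl5 fell to a level not above background, at least 1.79-fold, from fibroblast values spread from 6.13 to 7.70. Of 11 complement genes 4 were lower and 3 higher, and 1 was higher without fibroblast replicate 1 or after cyclic loess normalisation. C1s1 and the inhibitor Serping1 fell by 1.88 ± 0.24 and 1.32 ± 0.16, and C5ar1, the receptor on myeloid cells, rose by 0.44 ± 0.10.

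Interferon-stimulated genes were higher in 13 of 30 cases and lower in none (median 0.32), and higher in 8 without GFP- replicate 1. Rtp4 rose most, from 9.51, 9.42 and 9.27 to 10.85, 10.43 and 10.87 (2.5-fold, adjusted p = 8.85e-05), and the oligoadenylate synthetase genes Oasl2, Oas2 and Oas1a rose by 0.88 ± 0.16, 0.82 ± 0.19 and 0.79 ± 0.16 log2. Ifit1 (-0.31), Ifit3 (-0.62), Mx1 (-0.08) and Cxcl10 (0.00) were not called. Of 11 class I presentation genes, 6 were higher, led by the immunoproteasome subunit Psmb9 (0.76) and by Tapbp (0.68). Of 15 Toll-like receptor genes, 4 were higher, Tlr2 most (0.90). Class II genes gave 1 call of 8, Cd74 (0.36), which was lost without fibroblast replicate 1 or 3 or GFP- replicate 2.

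Endothelial genes were higher in 11 of 20 cases and lower in none (median 0.34). Emcn, endomucin, a surface sialomucin of vein and capillary endothelium, measured 6.39, 5.61 and 5.97 in fibroblasts, a mean not above background, and 9.06, 9.25 and 8.96 in GFP- cells, at least 7.64-fold higher (adjusted p = 7.20e-11). Cdh5, the cadherin of endothelial junctions, measured 6.81, 6.79 and 6.70 in fibroblasts and 8.86, 8.61 and 8.75 in GFP- cells (3.92-fold higher, adjusted p = 5.82e-10). No GFP- array overlapped a fibroblast array in either gene. Pecam1 rose by 1.20 ± 0.14 log2, Vwf by 1.03 ± 0.10 and the receptor Kdr by 0.69 ± 0.15, and Tek (0.07), Cldn5 (-0.17) and Nos3 (0.08) were not called.

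At 4 weeks the endothelial genes differed in direction. Emcn measured 11.19, 11.08 and 10.90 and Cdh5 10.61, 10.52 and 10.11, both higher than at 2 weeks (by 1.97 ± 0.16 and 1.68 ± 0.12 log2, adjusted p = 1.13e-07 and 2.05e-08), and Pecam1 was higher by 1.69 ± 0.14 (adjusted p = 1.82e-07). Vwf, von Willebrand factor, was lower at 4 weeks, by 0.85 ± 0.10 (adjusted p = 9.93e-06). In all, 7 of 20 endothelial genes were lower at 2 than at 4 weeks and 1 was higher. GFP+ cells at 2 weeks measured 6.49, 6.58 and 6.76 for Emcn and 7.10, 7.23 and 6.87 for Cdh5.

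**Figure D5:**
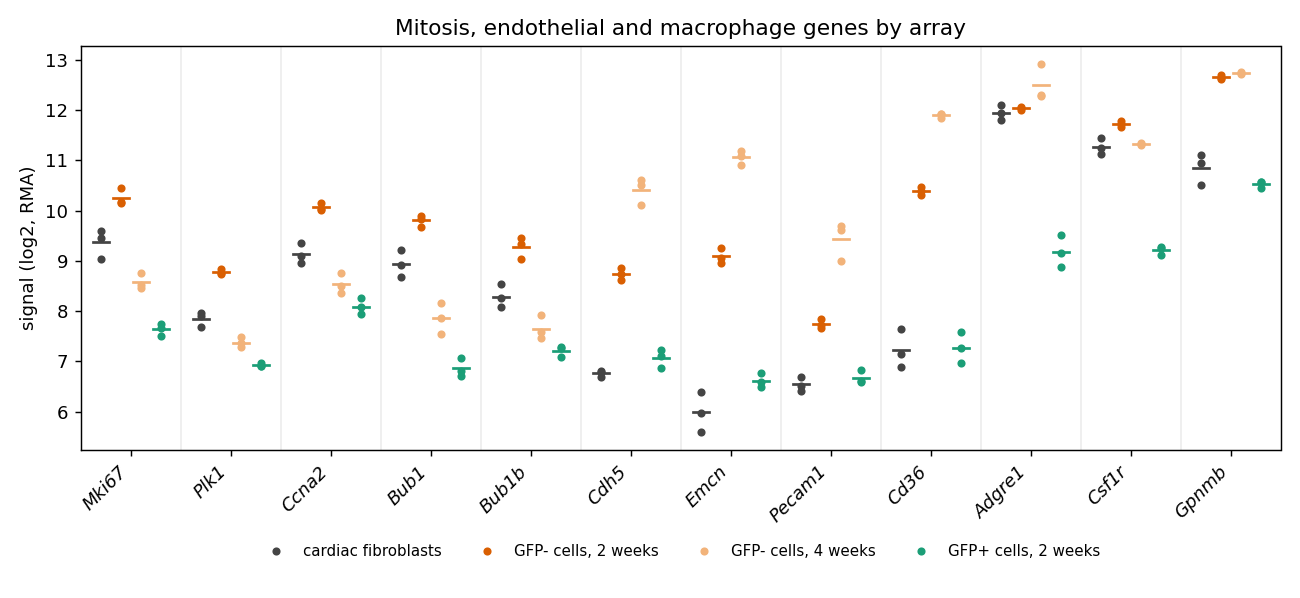
Signal (log2, RMA) of 5 mitosis genes, 4 genes of endothelium (Cdh5, Emcn, Pecam1 and Cd36, the last also of macrophages) and 3 macrophage genes in each array of cardiac fibroblasts, 2-week and 4-week GFP- cells and 2-week GFP+ cells, with 1 point per array and a line at the mean of 3. The mitosis genes are highest in 2-week GFP- cells and Cdh5, Emcn, Pecam1 and Cd36 are highest in 4-week GFP- cells.

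Markers of other cell types that the cultures could hold were checked in the same fit. Of 15 mesothelial and epicardial genes, 6 were lower and 2 higher, and 3 were lower without fibroblast replicate 1. Msln, mesothelin, rose from 7.88, 7.58 and 7.39 to 8.59, 9.33 and 8.85 (2.48-fold, adjusted p = 1.70e-05) and Krt18 by 0.82 ± 0.14 log2, while Tbx18, a transcription factor of epicardium, fell by 0.98 ± 0.15 and Wt1 by 0.51 ± 0.12. None of 7 Schwann cell genes, 3 erythroid genes or 8 adipocyte genes was called, though with array weights 2 Schwann cell genes and 1 erythroid gene were higher. When only the 2 groups compared were fitted, 1 adipocyte gene was higher. Bone and cartilage genes gave 2 calls of 11, Sox9 (-0.46, lost without fibroblast replicate 1 or GFP- replicate 2) and Alpl (-0.40), both lower.

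Lymphocyte genes gave 2 calls of 12 (4 with array weights), Il7r, which measured 8.22, 7.995 and 8.50 in fibroblasts and 9.32, 9.54 and 9.49 in GFP- cells (2.31-fold higher, adjusted p = 0.000241), and Cd79b (0.30), which was lost on several settings. The T cell genes Cd3e (0.20) and Cd3g (-0.12) and the B cell gene Ms4a1 (0.02) were not called. Of 12 mast cell and granulocyte genes 3 were higher (6 with array weights), Csf3r (0.40, lost on some settings) and S100a8 and the protease Mcpt4, each from below the background limit (at least 1.92-fold and 1.94-fold, the latter lost without GFP- replicate 1 or fibroblast replicate 3). Itgax, the integrin CD11c, was the one dendritic cell gene of 10 that rose (0.85 ± 0.17 log2).

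Pluripotency genes gave 1 call of 11, Dppa3 (0.58), which was lost on several settings, and Pou5f1 (0.27), Nanog (0.00) and Sox2 (-0.02) were not called. Of 10 genes of cardiac progenitors and early mesoderm 2 were higher, Kdr and Mixl1 (0.61), and 2 lower, Pdgfra and Fgf10 (-1.04). Isl1 (0.05) and Mesp1 (0.07) were not called.

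Of 22 immediate early genes, 6 were higher and none lower, with Atf3 (0.79) and Junb (0.61) in front and Fos (0.06), Egr1 (-0.32) and Jun (0.31) not called. The number higher was 4 without fibroblast replicate 1 and 11 with array weights, and 1 was lower without GFP- replicate 2. Of 18 endoplasmic reticulum stress genes 4 were higher, 2 when the groups compared were fitted alone or without fibroblast replicate 3, and Ddit3 (0.21) and Hspa5 (0.09) were not called. Of 21 genes of oxidative stress and detoxification, 9 were higher, led by Gstm1 (0.78), and 4 lower, the retinaldehyde dehydrogenases Aldh1a2 (-1.60) and Aldh1a1 (-1.14), Cyp1b1 (-1.37) and the extracellular dismutase Sod3 (-1.15). Of 11 heat shock genes 3 were lower (6 after quantile normalisation), Hspb8 by 0.89 ± 0.18 log2, Hspb1 by 0.63 ± 0.16 and Cryab by 0.50 ± 0.14, and Hspa1a rose by 0.45 ± 0.12, a call lost without GFP- replicate 3.

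Of 20 integrin and adhesion genes, 8 were lower and 3 higher. Ncam1 fell by 1.60 ± 0.17 log2, Itga1, a collagen receptor subunit, by 1.27 ± 0.16 and Cdh11, a mesenchymal cadherin, by 0.96 ± 0.18. Of 26 axon guidance and neuronal genes, 9 were lower and 4 higher (median -0.02). The largest measured change of this list was the rise of Bex1, described below, from a fibroblast level not above background. The guidance ligands Slit2 and Sema3d fell by 1.77 ± 0.26 and 1.25 ± 0.20, and Robo1 (-0.74) and Robo2 (-0.67), receptors of Slit2, fell as well. Tubb3, a neuronal tubulin that fibroblasts in culture also express, fell by 1.49 ± 0.23.

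Bex1 had the largest measured rise of the naming rule, but from a fibroblast level not above background, so its rank is not settled. It encodes a small acidic protein best known from brain and regenerating tissue. Bex1 measured 3.99, 4.13 and 4.06 in fibroblasts and 7.66, 7.77 and 7.40 in GFP- cells, and it was at least 2.74-fold higher (adjusted p = 1.72e-10). Its relative Bex4 measured 4.95, 4.59 and 4.79 in fibroblasts and 7.10, 7.41 and 6.87 in GFP- cells, at least 1.96-fold higher (adjusted p = 5.47e-08), while Bex2 was not called (0.44). Both Bex1 and Bex4 were higher in GFP- cells at 4 weeks and in GFP+ cells at 2 weeks than in 2-week GFP- cells: Bex1 measured 8.80, 8.69 and 9.12 in the former and 9.85, 9.58 and 9.96 in the latter (adjusted p = 0.000134 and 1.49e-08), and Bex4 differed by -0.999 and -1.71 log2 (adjusted p = 0.00129 and 4.90e-07).

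Cd24a, a small glycosylated surface protein of immature cells, measured 8.03, 8.09 and 7.55 in fibroblasts and 11.53, 11.05 and 11.35 in GFP- cells (10.7-fold higher, adjusted p = 2.97e-12). Clu, the secreted chaperone clusterin, measured 8.03, 7.55 and 7.69 in fibroblasts and 10.55, 10.43 and 10.36 in GFP- cells (6.44-fold higher, adjusted p = 6.98e-11). Both were higher again in GFP+ cells, by 1.56 ± 0.14 and 1.61 ± 0.13 log2 (adjusted p = 1.07e-08 and 6.36e-09). Tspan8, a tetraspanin, rose by 2.52 ± 0.25 over fibroblast arrays that ran from 7.14 to 8.55, and Scg2, secretogranin II of dense-core vesicles, by 2.13 ± 0.22, with GFP- replicate 2 the highest array in both.

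Hal and Tmem154 were higher in 2-week GFP- cells than in each of 3 other groups. Hal, histidine ammonia-lyase, the first enzyme of histidine breakdown, measured 7.88, 7.94 and 7.95 in fibroblasts and 10.81, 10.67 and 10.72 in GFP- cells (7.01-fold higher, adjusted p = 1.71e-13). It was also 4.63-fold higher than in 4-week GFP- cells and 4.78-fold higher than in GFP+ cells (adjusted p = 1.44e-11 and 3.09e-13), and no array of those groups overlapped the 2-week GFP- arrays. Tmem154 rose by 2.13 ± 0.16 log2 and was higher than in 4-week GFP- and in GFP+ cells by 1.02 ± 0.16 and 2.27 ± 0.16 (adjusted p = 0.000191 and 6.81e-10).

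Other large falls were of secreted and metabolic genes. Rarres2, chemerin, a chemoattractant made by stromal cells, measured 11.30, 11.14 and 11.14 in fibroblasts and 8.32, 8.14 and 8.11 in GFP- cells (8.0-fold lower, adjusted p = 2.38e-12). Medag, named for its role in adipocyte differentiation, measured 9.36, 9.09 and 9.30 in fibroblasts and 6.16, 6.48 and 6.10 in GFP- cells (8.01-fold lower, adjusted p = 1.41e-10), with a GFP- array at 6.10 that lay below the background limit. Hsd11b1, which regenerates active glucocorticoid, fell by 2.78 ± 0.19 log2. The phosphodiesterase gene Pde1a fell by 2.76 ± 0.17. Pde1a was lower at 2 than at 4 weeks by 1.12 ± 0.17 (adjusted p = 9.94e-05), whereas Hsd11b1 did not pass that test (-0.16 ± 0.19, adjusted p = 0.607). Fkbp5 and Sgk1, which respond to glucocorticoid, rose by 0.61 ± 0.11 and 0.47 ± 0.12, and Tsc22d3 (-0.08), another such gene, was not called.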

How the data were processed

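RNA of 18 samples was hybridised to Affymetrix mouse Gene 1.0 ST arrays, and 6 of them enter the main comparison. The deposited values are log2 signals, made by the authors with RMA (background correction, quantile normalisation and probe summary) per the submitters' processing notes, with no version or build given in the sources used here. Per the labels, total RNA was isolated with a PicoPure kit and amplified. Of 28682 probe sets, 21755 name 1 gene, 1592 name several and 5335 name none. Each of 19912 genes was represented by its brightest probe set over all arrays. Arrays carry no read depth, so their number limits the precision. limma 3.58.1 in R 4.3.3 was fitted to all 18 arrays with group as the factor. Benjamini-Hochberg adjustment ran over all genes, with 0.05 as the threshold of a call. Every adjusted p is from this limma fit, ± in a difference is its SE, and folds are 2 to the power of a log2 difference. "At least" folds set the bright group's mean against the background limit.

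Named genes are the 15 largest rises and 15 largest falls with separate arrays, up to 5 called members per list, and 25 fixed genes; members not called are named for contrast. The members and lists were chosen with earlier results of these data known. Alternatives covered normalisation, array weights, filters, probe set choice, a replicate block and leaving out arrays. Scripts were tested on simulated data. Promoters are from RefSeq (GRCm38.p6) and matched 15600 genes.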

Additional observations from a re-analysis of the deposited data

Results flagged for a closer look

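The difference from fibroblasts was not the same at 2 and at 4 weeks: 3465 genes were called when GFP- cells of both times were compared directly, which is also the test of the difference between their contrasts with the shared fibroblasts. Among genes named in the text, 11 were called on opposite sides of the fibroblasts at the 2 times, 9 of them higher at 2 weeks and lower at 4 weeks. The contrast at 2 weeks minus that at 4 weeks was 1.9467 log2 for Bub1, 1.6253 for Bub1b, 1.5217 for Ccna2, 1.6717 for Mki67, 1.4077 for Plk1 and 0.7597 for Ezh2, all genes of dividing cells. It was 1.019 for Fkbp5, a chaperone of the glucocorticoid receptor, and 0.534 for Herpud1, an endoplasmic reticulum stress gene whose call at 2 weeks was lost on some settings. It was 0.7107 for Tgfbi, likewise lost on some settings. The other two turned the other way, lower at 2 weeks and higher at 4 weeks: Lum, a collagen-binding proteoglycan (-3.3123), and Bmp4, a secreted growth factor (-1.2683). Over all genes, 133 were called in both contrasts with opposite signs and between the times, 111 of them higher at 2 weeks.

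Probe sets outside the gene analysis also carried differences. Of the 5335 probe sets that name no gene, 92 were called with at least a 2-fold difference, 15 higher and 77 lower in GFP- cells. Of the 1592 that name several genes, 39 were, 20 higher and 19 lower. Among the genes tested, 473 of 19912 (2.38%) were called with at least a 2-fold difference. Neither group of probe sets stood clearly above that share.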

How the results depend on the processing

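Of 227 named genes examined, 222 were called, 196 of these kept call and direction on every alternative, and none changed direction. With array weights 4619 genes were higher and 2779 lower, and 6087 were called between 2-week and 4-week GFP- cells. The other alternatives kept these counts within 1.5 times. Without 1 array at a time, 2095 to 2547 genes were higher, 1305 to 1930 lower and 426 to 545 at least 2-fold different, 2350 to 3677 were called against 4-week GFP- cells and 6050 to 6794 against GFP+ cells. The share of calls that were higher was 60.7%, against 52.5% after quantile normalisation (2605 higher, 2361 lower) and 51.7% after cyclic loess (2581 and 2409), so the balance of small rises and falls depends on the scaling. The replicate numbers gave no sign of pairing. Deviations of same-numbered fibroblast and GFP- arrays correlated at -0.154, -0.0139 and -0.000430, and those of differently numbered arrays at -0.104 to 0.150. With 3 arrays per group these values cannot show that the samples were unpaired in origin. With a replicate block 2847 genes were higher, 1850 lower and 473 at least 2-fold different. A signal below 6.157 log2 gives only a bound, and 3 arrays per group limit what small differences can be called.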

Other observations

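Some gene families were set out after their values had been seen, and their counts are descriptions. The soluble guanylate cyclase subunits, which sense nitric oxide, fell in 3 of 4 cases, Gucy1a1 by 2.66 ± 0.14 log2, Gucy1b1 by 2.42 ± 0.18 and Gucy1a2 by 2.14 ± 0.19 (adjusted p = 1.13e-10, 9.55e-09 and 1.91e-07). Of 30 histone genes 14 were higher and 2 lower (median 0.33). Small noncoding RNAs were counted by class: of 51 small nucleolar RNA genes 2 were higher and 22 lower (median -0.36), and of 7 genes named Rny (Y RNAs) or Rnu (U RNAs) 5 were higher and none lower (median 1.10), Rny1 at least 2.08-fold. Of 282 microRNA genes 9 were higher and 38 lower, and of 1018 olfactory receptor genes 45 were higher and 10 lower (median 0.10). Among all genes 13.8% were higher and 8.93% lower. Olfactory receptor genes were thus called less often than genes at large in both directions, and microRNA genes were less often called higher.

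Other single genes picked out after their values were seen were Mlana, a melanosomal protein, at 7.50, 7.35 and 7.41 in fibroblasts and 9.12, 9.26 and 9.02 in GFP- cells (1.71 ± 0.10 log2, adjusted p = 8.14e-10), and the transcription factor Tfec of the same regulatory family as Mitf (1.43 ± 0.17, adjusted p = 6.58e-06). Fabp7, a brain-type fatty acid binding protein, rose by 1.55 ± 0.10, the neuropeptide gene Npy by 1.90 ± 0.17, the iron exporter Slc40a1 by 1.53 ± 0.16 and the transferrin receptor Tfrc by 1.49 ± 0.15 (adjusted p = 2.77e-09, 1.40e-07, 9.46e-07 and 6.33e-07). Osmr, the receptor of oncostatin M, fell by 2.48 ± 0.16 and Serpinf1, an antiangiogenic serpin, by 2.67 ± 0.14 (adjusted p = 1.52e-09 and 1.27e-10).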
